A study of Rattus norvegicus with 22 samples.

Results

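The probe sets described here are those for the receptors of noradrenaline and dopamine, taken as every probe set of the array whose platform gene symbol is Adra1a, Adra1b, Adra1d, Adra2a, Adra2b, Adra2c, Drd1, Drd2, Drd3 or Drd4. Of the 1050 probe sets in the deposited table, 13 met this rule, and they belong to 9 of the 10 genes. Drd1 has 3 probe sets, Adra1d and Drd3 have 2 each, the other 6 genes have 1 each, and Adra2a was not analysed here. Each probe set was followed on its own over all 22 arrays.

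Neurons of the L2 segment were taken by laser microdissection from sections of spinal cords of Wistar rats at postnatal day 0 to 4, and the RNA of each animal went through 2 rounds of amplification onto an Affymetrix RN_U34 array of its own. Descending commissural interneurons (dCINs, 7 arrays) had been filled from a cut hemisection between L3 and L4, and motor neurons (MNs, 7 arrays) from the cut L2 ventral roots, with the same retrograde tracer, a rhodamine dextran, during incubation of the isolated cord. The 8 MIX arrays hold cells sampled at random in the ventral horn, a mixture with no label of its own. A sample pooled 50 to 100 cells for dCINs (median 75), 55 to 250 for MNs (median 100) and 95 to 187 for MIX (median 112.5), and in such pools fewer cells that carry a transcript and less transcript per cell cannot be told apart.

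Noradrenaline reaches the ventral horn in fibres that descend from the brainstem, and dopamine in fibres that come mainly from the hypothalamus, and both transmitters alter the excitability of MNs and of the interneurons that drive locomotion. Alpha-1 adrenoreceptors couple to Gq and phospholipase C and as a rule excite neurons, whereas alpha-2 adrenoreceptors couple to Gi and as a rule inhibit them. D1-like dopamine receptors raise cyclic AMP through Gs, and D2-like receptors lower it through Gi.

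Signals are linear-scale Li-Wong summaries, and differences are dCIN minus MN on the log2 scale, so that a negative value means a lower signal in dCINs. Array medians ran from 43.5 to 50.9 in dCINs, 44.3 to 50.8 in MNs and 45.0 to 48.2 in MIX. Several receptor probe sets lay near these medians, and 4 of the 13 had a mean log2 signal of at least 6 over all arrays. Marker lists were summed per array over the brightest probe set of each gene. The motor neuron markers (Calcb, Isl2, Nefh, Nefl and Slc18a3) summed to 2670 to 4361 on dCIN arrays, 10838 to 12858 on MN arrays and 5205 to 10086 on MIX arrays, and 4 of their 8 probe sets were called lower in dCINs. Slc32a1, the vesicular transporter of GABA and glycine and the one gene of the inhibitory list named on the array, had 352 to 762 in dCINs, 35.2 to 366 in MNs and 187 to 580 in MIX at AF030253_at. Its other probe set, rc_AA996551_s_at, averaged 38.0 in dCINs, 36.0 in MNs and 43.6 in MIX and was not called (log2 difference 0.09, adjusted p = 0.760). The astrocyte markers Apoe, S100b, Slc1a2 and Slc1a3 summed to 5224 to 8054 in dCINs, 3274 to 5762 in MNs and 3314 to 8453 in MIX, and 1 of their 8 probe sets, for Apoe, was called higher in dCINs. Of these 8 probe sets 7 were higher in dCINs than in MNs, and 3 had an unadjusted p under 0.05 (limma). Most of the sum was Apoe X04979_at, with 6027 ± 869 in dCINs and 3768 ± 798 in MNs. S100b had 1103 ± 249 in dCINs and 771 ± 196 in MNs (log2 difference 0.53, adjusted p = 0.170). Slc1a2 entered the sum through rc_AI044517_g_at, with means of 82.3 in dCINs and 74.0 in MNs. Its dimmer probe set, U15098_at, averaged 32.8 in dCINs and 31.4 in MNs, below the array medians. The oligodendrocyte markers Cnp, Mag, Mbp and Mog summed to 360 to 560 in dCINs, 355 to 617 in MNs and 245 to 638 in MIX, with 0 of 7 probe sets called and 2 at an unadjusted p under 0.05. Cnp averaged 220 in dCINs, 227 in MNs and 214 in MIX, and Mag M22357_g_at averaged 126, 127 and 122, all above the array medians. Mbp, myelin basic protein, averaged 37.0 in dCINs, 36.0 in MNs and 37.4 in MIX, below the array medians. Itgam, the one microglial marker measured, had 14.1 to 19.4 in dCINs, 15.0 to 19.6 in MNs and 14.9 to 27.5 in MIX.

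Among these receptors 1 probe set differed between dCINs and MNs: M60654_at for Adra1d, the alpha-1D adrenoreceptor, whose signal was lower in dCINs. The remaining 12, including the second probe set for Adra1d and all 7 for dopamine receptors, did not pass the threshold, an adjusted p under 0.1 (Benjamini-Hochberg) across the 1050 probe sets. Limma called 3.81% of all probe sets in either direction and 1.43% as lower in dCINs, against 1 of 13 here, so the count does not set these receptors apart from the rest of the array. None of the 13 separated dCINs from MNs without overlap, compared with 1.62% of all probe sets. The median log2 difference was -0.09 over the 13 and -0.03 over all probe sets, and the median size of a difference was 0.15 and 0.13.

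**Figure D1:**
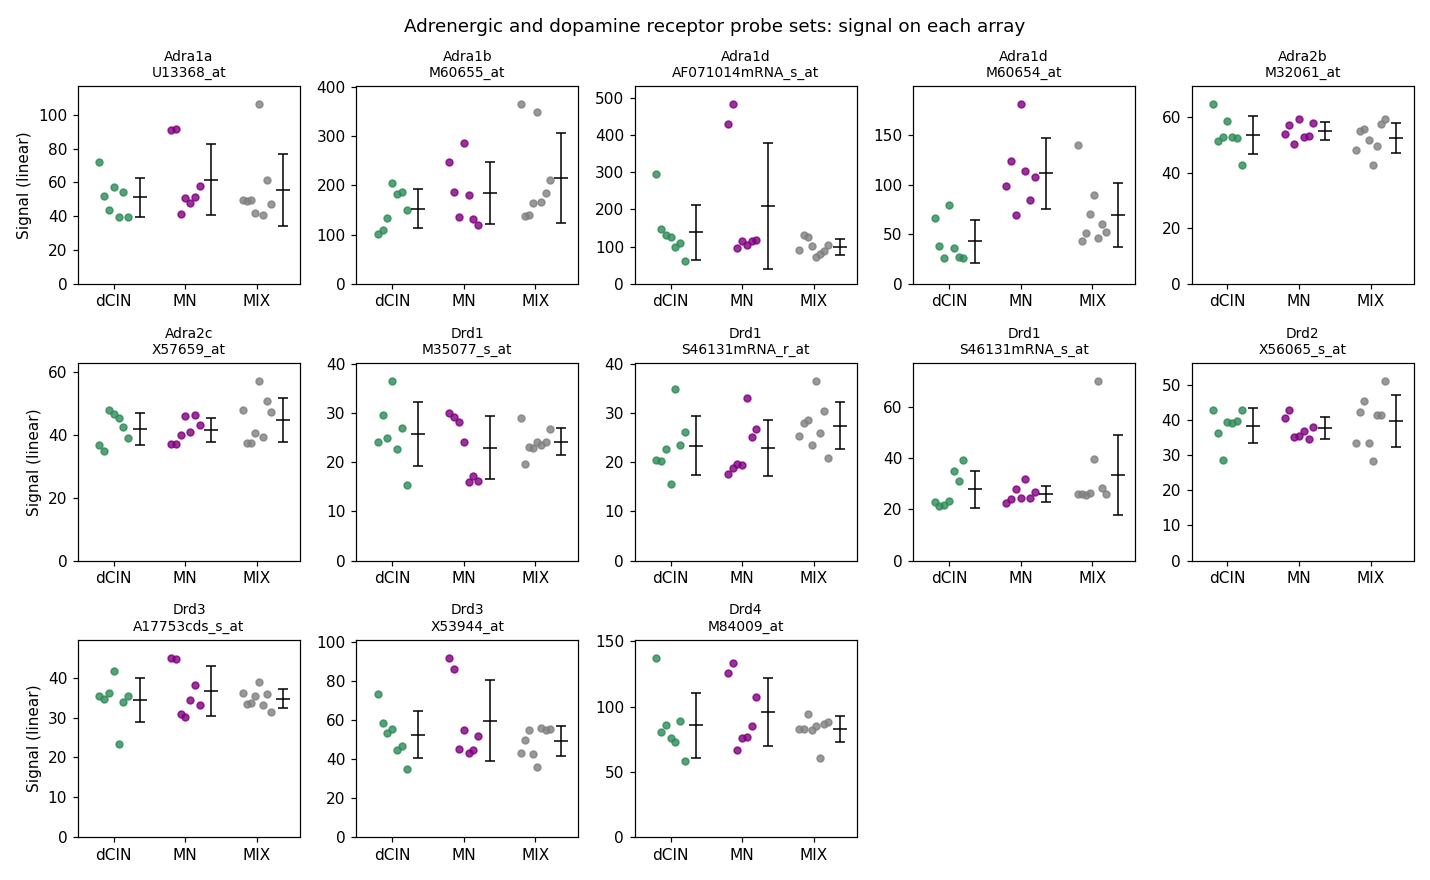
Signal of each receptor probe set on each array (linear scale, axis from 0), with dCIN, MN and MIX arrays from left to right in every panel. Points are single arrays and bars beside them show mean ± SD (n = 7, 7 and 8); the groups overlap in every panel, least for Adra1d M60654_at.

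Adra1d M60654_at had a signal of 26.0 to 79.5 on the dCIN arrays (median 36.5) and 69.5 to 181 on the MN arrays (median 108). The groups overlapped through dCIN 4 alone, at 79.5, which lay above MN 3, at 69.5. The other 6 dCIN arrays lay below every MN array, the nearest being dCIN 1 at 66.5. On average the signal was 42.8 ± 21.5 in dCINs, against 111 ± 35.8 in MNs (SD, 7 arrays each). This is a log2 difference of -1.46 (SE 0.27, 95% confidence interval -2.04 to -0.87), or 2.75-fold lower in dCINs, with an adjusted p of 0.00509 from limma. By p-value it ranked 18 among the 1050 probe sets. The exact permutation test gave a two-sided p of 0.00117, where 7 arrays against 7 allow no p below 0.000583. Leaving out any single array kept the call, with log2 differences of -1.63 to -1.33 and adjusted p-values of 0.0018 to 0.0151. Apart from dCIN 1 and dCIN 4, the dCIN signals at this probe set lay below the dCIN array medians of 43.5 to 50.9. The authors state that subtracting a universal minimum from the summaries raises ratios between samples, so the fold size holds for values treated this way. The motor neuron markers given above were also lower in dCINs, and 7 of the 8 astrocyte probe sets were higher. The part of these markers in the difference was not tested.

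On MIX arrays the same probe set had 43.6 to 139.8 (median 56.0, mean 69.2 ± 32.3, SD, n = 8), so the MIX mean lay between those of MNs and dCINs. It stood highest on MIX 1 (139.8) and MIX 5 (89.9). The summed motor neuron markers were 9670 on MIX 1 and 8486 on MIX 5, where the MIX arrays ran from 5205 to 10086. The highest sum, 10086, was that of MIX 7, where this probe set had 59.9. MIX 2 had a sum of 9037, above MIX 5, and the lowest signal of the MIX arrays at this probe set, 43.6. The part of these markers in the Adra1d signal of the MIX arrays was not tested. With 3 group means over all 22 arrays, limma gave -0.72 for dCIN minus MIX (SE 0.27, unadjusted p = 0.0150, adjusted p = 0.469) and 0.74 for MN minus MIX (SE 0.27, unadjusted p = 0.0135, adjusted p = 0.345). Neither was called, and both contrasts use the same MIX arrays.

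The second probe set for Adra1d, AF071014mRNA_s_at, showed another pattern. Its suffix marks probes that may match more than 1 transcript. It had 61.1 to 294 in dCINs (median 126) and 96.8 to 483 in MNs (median 116), and the dCIN range reached below and overlapped that of MNs. The high end came from dCIN 1 (294), MN 1 (430.0) and MN 2 (483). All other dCIN arrays lay at or below 146 and all other MN arrays at or below 117. Its log2 difference was -0.40 (SE 0.42, 95% confidence interval -1.29 to 0.49, adjusted p = 0.754). Without those 3 arrays, a choice made after the values were seen, the signal was 112 ± 29.9 in dCINs (SD, n = 6) and 110 ± 8.75 in MNs (n = 5; log2 difference -0.02, SE 0.19). On the same arrays M60654_at kept its difference, at -1.57 (SE 0.30, adjusted p = 0.0112 from limma), so the call on Adra1d came from 1 of its 2 probe sets whether or not these arrays were included.

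The gap between both probe sets on the same array, M60654_at minus AF071014mRNA_s_at in log2, was -1.68 ± 0.59 in dCINs and -0.62 ± 1.05 in MNs (SD, 7 arrays each), a difference of -1.06 (exact permutation test, two-sided, p = 0.0396). Without dCIN 1, MN 1 and MN 2 the gap was -1.60 ± 0.61 in dCINs (n = 6) and -0.05 ± 0.47 in MNs (n = 5), a difference of -1.55, given with no test since those arrays were left out for their AF071014mRNA_s_at values. The comparison itself was chosen after the values were seen. Over the 22 arrays, with group means removed, the correlation between the 2 probe sets was 0.19 (a description, with no test). Which of them reports the transcript of Adra1d in these cells cannot be read from the deposited summaries.

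**Figure D2:**
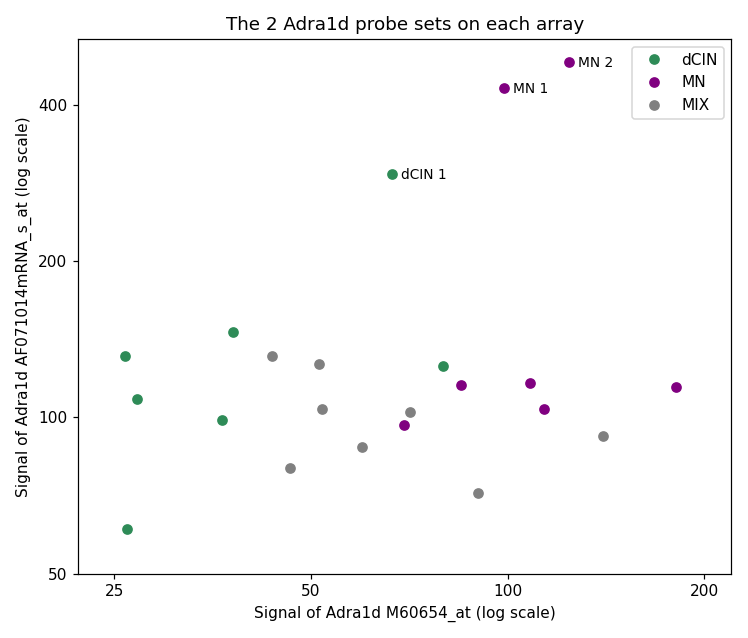
Signal of the 2 Adra1d probe sets on each of the 22 arrays, M60654_at on the x axis and AF071014mRNA_s_at on the y axis, both log scales, with 1 point per array coloured by group. dCINs lie mostly to the left of MNs along the x axis, whereas on the y axis dCIN 1, MN 1 and MN 2 (294, 430.0 and 483) stand above all other arrays of any group.

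Adra1b, the alpha-1B adrenoreceptor, gave signals of 101 to 204 in dCINs (median 151) and 120.1 to 286 in MNs (median 180.2). The groups overlapped over most of their range, with means of 153 ± 40.1 in dCINs against 184 ± 62.8 in MNs (SD, 7 arrays each). The log2 difference was -0.25 (SE 0.22, 95% confidence interval -0.71 to 0.22, adjusted p = 0.721). MIX arrays had 137 to 365 (mean 215 ± 91.0, n = 8). The top pair, MIX 1 at 365 and MIX 5 at 349, were also the highest MIX arrays for Adra1d M60654_at. Against MIX, Adra1b had -0.44 in dCINs (SE 0.24, adjusted p = 0.798) and -0.19 in MNs (SE 0.24), neither called.

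Adra1a, the alpha-1A adrenoreceptor, had 39.4 to 72.0 in dCINs (median 51.6) and 41.1 to 91.6 in MNs (median 51.5). The medians were nearly equal, and the higher MN mean (51.1 ± 11.6 in dCINs, against 61.6 ± 21.0 in MNs, SD, 7 arrays each) came from MN 1 at 91.3 and MN 2 at 91.6, with the next MN array at 57.7. Its log2 difference was -0.24 (SE 0.20, 95% confidence interval -0.66 to 0.19, adjusted p = 0.720), and without MN 1, MN 2 and dCIN 1 it was -0.07 (SE 0.13). On MIX arrays it had 40.5 to 106 (mean 55.6 ± 21.4, n = 8), the highest being MIX 5.

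The alpha-2 adrenoreceptors measured here had the smallest standard errors among the receptors for noradrenaline (0.09 for Adra2b and 0.10 for Adra2c). Adra2b, alpha-2B, had 42.7 to 64.8 in dCINs (median 52.8), 50.5 to 59.5 in MNs (median 54.1) and 43.0 to 59.6 in MIX (median 53.5). Adra2c, alpha-2C, had 34.8 to 47.7 in dCINs (median 42.4), 36.9 to 46.2 in MNs (median 40.8) and 37.3 to 57.1 in MIX (median 43.9). For both genes the ranges of all 3 groups lay over one another. The intervals were narrow: -0.04 (95% confidence interval -0.24 to 0.15, adjusted p = 0.885) for Adra2b, and 0.01 (-0.20 to 0.22, adjusted p = 0.984) for Adra2c. A log2 difference as large as that of Adra1d M60654_at lies outside both intervals. Adra2c averaged 41.8 in dCINs, 41.4 in MNs and 44.7 in MIX, below the array medians. Adra2b averaged 53.7, 55.0 and 52.6, just above them. No detection call stands behind these signals, so the intervals bound a difference in signal and not necessarily one in transcript.

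**Figure D3:**
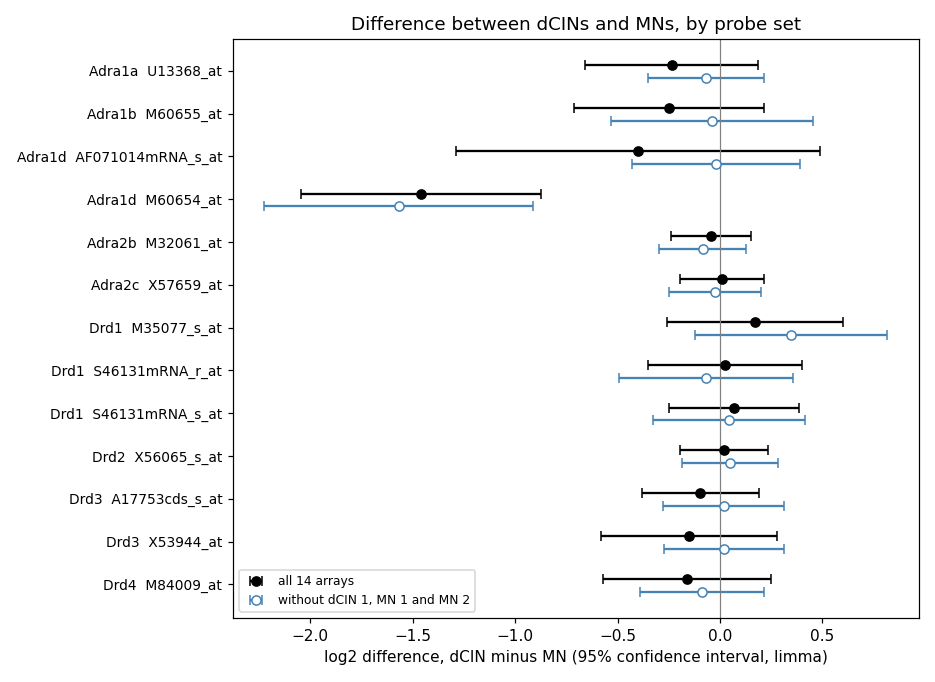
Log2 difference, dCIN minus MN, of each receptor probe set with its 95% confidence interval from limma, for all 14 arrays (filled) and without dCIN 1, MN 1 and MN 2 (open). Adra1d M60654_at, at -1.46 with all arrays and -1.57 without these 3, is the only one whose interval leaves out 0 in either fit.

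Drd1 encodes the D1 receptor, the main D1-like receptor, and was measured by 3 probe sets that did not move together. M35077_s_at had 15.4 to 36.5 in dCINs (median 24.9) and 15.9 to 30.0 in MNs (median 24.1), with a log2 difference of 0.17 (95% confidence interval -0.26 to 0.60, adjusted p = 0.786). S46131mRNA_r_at, whose suffix marks relaxed rules of probe selection, had 15.7 to 34.9 in dCINs (median 22.6) and 17.5 to 33.1 in MNs (median 19.7), with 0.02 (-0.35 to 0.40, adjusted p = 0.970). S46131mRNA_s_at had 21.2 to 39.3 in dCINs (median 23.4) and 22.4 to 31.9 in MNs (median 24.6), with 0.07 (-0.25 to 0.38, adjusted p = 0.888). On dCIN and MN arrays all of these signals lay below the array medians, and the groups overlapped in each.

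Across the 22 arrays with group means removed, the correlation of M35077_s_at with S46131mRNA_r_at was -0.71 and with S46131mRNA_s_at -0.35, and that between the S46131 pair was 0.44. These are descriptions over arrays that share 1 normalization. The arrays numbered 5 to 7 stood above those numbered 1 to 4 for S46131mRNA_r_at in both dCINs (23.5 to 34.9 against 15.7 to 22.6) and MNs (25.1 to 33.1 against 17.5 to 19.7), a split in both groups in the same direction that 1.05% of all probe sets showed. M35077_s_at ran the other way in MNs, with 15.9 to 17.2 on arrays 5 to 7 and 24.1 to 30.0 on arrays 1 to 4. The labels do not say what the numbers stand for. No Drd1 probe set was called with these numbers as a covariate.

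Of the D2-like receptors, Drd2, which couples to Gi and also serves as an autoreceptor of dopamine neurons, had 28.5 to 42.9 in dCINs (median 39.3), 34.6 to 42.8 in MNs (median 36.8) and 28.3 to 51.0 in MIX (median 41.4). Its log2 difference was 0.02 (95% confidence interval -0.19 to 0.23, adjusted p = 0.957), and the 3 ranges lay over one another. Drd4, the D4 receptor, had 58.7 to 137 in dCINs (median 80.7), 66.8 to 134 in MNs (median 85.4) and 61.1 to 94.4 in MIX (median 84.2). The 3 medians were close, and the upper ends came from dCIN 1 (137), MN 1 (126) and MN 2 (134), with the next highest of all arrays, MN 7, at 107. The log2 difference of Drd4 was -0.16 (95% confidence interval -0.57 to 0.25, adjusted p = 0.795) with all arrays and -0.09 (-0.39 to 0.21) without those 3.

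Drd3, the D3 receptor, which binds dopamine with high affinity and couples to Gi, was measured by 2 probe sets. A17753cds_s_at had 23.3 to 41.7 in dCINs (median 35.3) and 30.2 to 44.9 in MNs (median 34.5), with a log2 difference of -0.09 (95% confidence interval -0.38 to 0.19, adjusted p = 0.809). X53944_at had 35.3 to 73.5 in dCINs (median 53.5) and 43.2 to 92.1 in MNs (median 52.1), with -0.15 (-0.58 to 0.28, adjusted p = 0.809). In both probe sets MN 1 and MN 2 stood above all other MN arrays, at 44.9 and 44.7 and at 92.1 and 86.5. Without them and dCIN 1 both differences came to 0.02. MIX arrays had 31.3 to 38.8 for A17753cds_s_at and 35.9 to 56.2 for X53944_at, within the span of the other groups.

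The arrays dCIN 1, MN 1 and MN 2 thus returned in several receptors, though not in all. The median deviation over the 13 probe sets from the array's own group was 0.12 for dCIN 1, 0.32 for MN 1 and 0.22 for MN 2, and it was 0.14 for dCIN 4 and 0.17 for MIX 5. Over all probe sets it was 0.09 for dCIN 1, 0.06 for MN 1, 0.06 for MN 2, 0 for dCIN 4 and -0.0001 for MIX 5. MN 1 and MN 2 both exceeded every other MN array in 7 of the 13 probe sets (Adra1a, Adra1d AF071014mRNA_s_at, Drd1 M35077_s_at, Drd2, both of Drd3, and Drd4), and did so in 35.4% of all probe sets on the array. The array dCIN 1 was the highest of the dCINs in 5 of 13, and in 36.5% of all probe sets. These arrays thus stood high in many probe sets besides the receptors. For MN 1 and MN 2 the share and the median deviation were larger over the receptors than over all probe sets, a difference that was not tested. MN 1 and MN 2 were made from 250 and 230 cells, the largest pools of the series, and dCIN 1 from 60, and the part of the pool size in their signals was not tested.

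**Figure D4:**
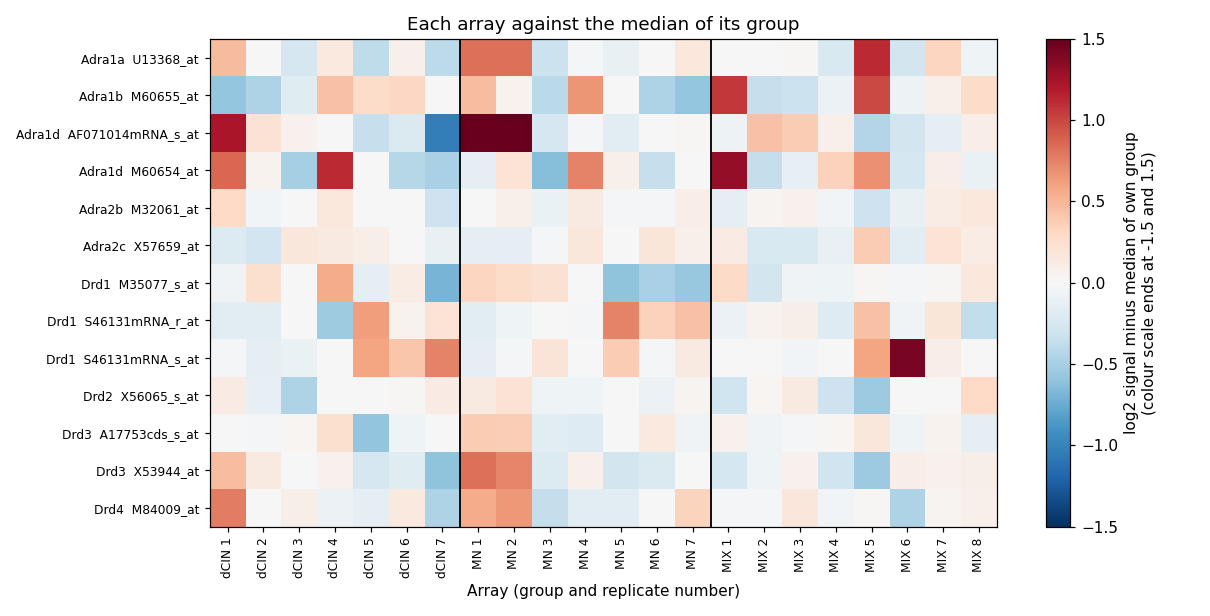
Log2 signal of each receptor probe set (rows) on each array (columns, dCIN, MN and MIX from left to right) minus the median of the array's own group, red above and blue below, with the colour scale ending at -1.5 and 1.5. The deepest red lies at MN 1 and MN 2 for Adra1d AF071014mRNA_s_at (1.89 and 2.06, past the end of the scale); no array is red in every row, dCIN 1 being above its group median in 7 rows and below it in 5, MIX 5 above in 9 and below in 4, and in MNs the Drd1 rows M35077_s_at and S46131mRNA_r_at take opposite colours on arrays 5 to 7.

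Compared with MIX, no receptor probe set was called in dCINs, where limma called 0.476% of all probe sets, or in MNs, where it called 0.952%. At an unadjusted p under 0.05 there was 1 of 13 in dCINs (Adra1d M60654_at), against 7.14% of all probe sets, and there were 2 of 13 in MNs (both of Adra1d), against 11.8%. The second was AF071014mRNA_s_at, with 71.6 to 132 on MIX arrays (mean 99.4 ± 21.2, n = 8), at 0.75 for MN minus MIX (SE 0.34, adjusted p = 0.412) and 0.35 for dCIN minus MIX (SE 0.34, adjusted p = 0.944). Without MN 1, MN 2 and dCIN 1, the first of these came to 0.17. The median difference from MIX over the 13 was -0.04 in dCINs, with 0.02 over all probe sets, and 0.06 in MNs, with 0.04 over all probe sets.

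Other genes of the same signalling pathways were described from lists. Receptors left out of the rule, Adrb1, Adrb3 and Drd5, had 3 probe sets, of which 0 were called between dCINs and MNs and 0 had an unadjusted p under 0.05. Drd5, the other D1-like receptor, averaged 59.9 ± 4.26 in dCINs against 69.7 ± 18.9 in MNs (SD, 7 arrays each; log2 difference -0.18, SE 0.14, adjusted p = 0.716). Adrb1, the beta-1 adrenoreceptor, averaged 36.1 ± 5.00 in dCINs against 38.4 ± 5.67 in MNs, a log2 difference of -0.09 (SE 0.12, adjusted p = 0.809).

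Enzymes and transporters that make or handle these amines (Dbh, Ddc, Maoa, Maob, Slc18a2, Slc6a3 and Th, 12 probe sets) had 0 calls between dCINs and MNs, also 0 at an unadjusted p under 0.05. The smallest p-values were those of Slc18a2 L00603_at, for the vesicular monoamine transporter, with a log2 difference of -0.21 (SE 0.10, adjusted p = 0.503), and of Ddc M84648mRNA_s_at, for the enzyme that decarboxylates L-DOPA, with -0.14 (SE 0.10, adjusted p = 0.715). The other probe set of each gene lay at 0.01 for Slc18a2 and 0.21 for Ddc. Th, Dbh and Slc6a3, taken as general markers of noradrenergic and dopamine neurons, summed to 137 to 198 in dCINs, 119 to 212 in MNs and 148 to 215 in MIX. These ranges lay over one another.

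Downstream of the receptors, 1 probe set was called. Prkcb, protein kinase C beta, an effector of Gq-coupled receptors and of many others, averaged 953 ± 179 in dCINs against 396 ± 178 in MNs at X04139_s_at (SD, 7 arrays each; log2 difference 1.38, SE 0.26, adjusted p = 0.0051 from limma). At this probe set it was thus higher in dCINs, the opposite direction to Adra1d M60654_at. The other probe sets for Prkcb were not called, with 0.31 for K03486_s_at (adjusted p = 0.669) and -0.08 for E01789cds_s_at (adjusted p = 0.885). The effectors had 16 probe sets of 8 genes in all. The G protein subunits measured (3 genes, 8 probe sets) had 0 calls and 2 at an unadjusted p under 0.05: Gnb1 U88324_g_at at 0.33 (SE 0.14, adjusted p = 0.415) and Gnb2 at -0.54 (SE 0.24, adjusted p = 0.439). Desensitization genes (Arrb1, Arrb2 and Grk2, 7 probe sets) had 0 calls, and the smallest p-values were those of Arrb2, an arrestin, at 0.48 (SE 0.29, adjusted p = 0.628) for M91590_g_at and -0.14 (SE 0.10, adjusted p = 0.705) for M91590_at.

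Receptors for 2 further transmitters were described in the same way. Among serotonin receptors, 2 of 15 probe sets were called, 1 in each direction: Htr5b, a metabotropic receptor, was higher in dCINs (log2 difference 0.73, adjusted p = 0.0037), and Htr3a, a ligand-gated channel, was lower at U01227_s_at (-0.75, adjusted p = 0.0153). A second probe set for Htr3a, D49395_s_at, was not called, with 43.8 ± 7.10 in dCINs and 43.7 ± 6.70 in MNs (adjusted p = 0.997). By real time RT-PCR the authors report Htr3a as more expressed in MNs. Of 7 muscarinic receptor probe sets 0 were called, and the smallest p-values were those of Chrm1, coupled to Gq, at -0.30 (SE 0.17, adjusted p = 0.579) and Chrm2, coupled to Gi, at -0.20 (SE 0.11, adjusted p = 0.581). The median size of a difference was 0.13 for serotonin receptors and 0.09 for muscarinic receptors, beside 0.15 for the receptors of noradrenaline and dopamine.

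The genes whose log2 signal followed Adra1d M60654_at most closely over all 22 arrays were Edn1, the peptide endothelin-1 (Pearson's r 0.79), Ngfr, the p75 neurotrophin receptor (0.77), Nefh, the neurofilament heavy chain (0.76), Kcna1, a Kv1 potassium channel (0.72), and Tgfb3, a growth factor (0.70). A probe set without a gene name that ranked 4 was left out. With the group means removed, r was 0.75 for Edn1, 0.58 for Kcna1, 0.48 for Tgfb3, 0.39 for Nefh and 0.37 for Ngfr. Edn1 thus followed Adra1d M60654_at within the groups about as closely as over all arrays, whereas for Ngfr and Nefh much of the likeness lay between the groups. The Edn1 probe set was dim, with means of 34.7 in dCINs, 39.9 in MNs and 38.0 in MIX, below the array medians. Between dCINs and MNs, Ngfr differed by -2.17 and Nefh by -1.28, both called lower in dCINs, while Kcna1 M26161_at at -0.70 (SE 0.21, adjusted p = 0.111), Tgfb3 at -0.69 (SE 0.21, adjusted p = 0.118) and Edn1 at -0.20 (SE 0.10, adjusted p = 0.503) were not called. From a combination of tests, the authors list Adra1d M60654_at, Ngfr, Nefh, Tgfb3 and another Kcna1 probe set, X12589cds_s_at, as more expressed in MNs. For Kcna1 they report the same direction by real time RT-PCR. The correlations are descriptions over arrays that share their preparation and normalization, and have no test.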

How the data were processed

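Laser microdissected dCINs, MNs and MIX cells were measured on 22 Affymetrix RN_U34 arrays, each from a separate animal. The authors derived the deposited intensity values from perfect-match probes through global background subtraction, a quantile linear transformation, quantile projection normalization across arrays, Li-Wong summaries (affy, version not given in the sources used here) and subtraction of a universal minimum. The common distribution removes any overall difference between cell types. Probe sets were named through GEO's platform annotation: 961 of 1050 carry 1 symbol, 7 several and 82 none. No detection call or count stands behind a signal, and precision is limited by how many arrays there are.

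Summaries were log2-transformed and compared with limma 3.58.1 (lmFit, eBayes) in R 4.3.3, using 14 arrays for dCINs against MNs and 3 group means over 22 arrays for contrasts with MIX. A call needed an adjusted p (Benjamini-Hochberg) under 0.1 across the whole table. Exact permutation tests over 3432 splits used scipy 1.17.1 in Python 3.11.15. All member probe sets were named, with the called probe sets of each list or otherwise its 2 smallest p-values, and the 5 named probe sets most correlated with Adra1d M60654_at. The members and lists were chosen with earlier results of these data known. Alternatives were an offset of 32, a mean log2 filter at 6, quantile normalization, subtraction of medians, array weights, a robust prior with an intensity trend, replicate and cell-number terms, other thresholds and arrays left out, of which the removal of dCIN 1, MN 1 and MN 2 together and the term for arrays 5 to 7 were chosen after the values were seen. The code was tested on simulated data.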

Additional observations from a re-analysis of the deposited data

Results flagged for a closer look

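In 5 of the 39 groups of arrays examined (13 probe sets in 3 groups), a single array stood far from the rest by Dixon's criterion on linear signals. Chance alone marks about 1 group in 20 where values are normally distributed, which was not checked for these signals. The criterion was not applied to the log2 values used in the fits. The array dCIN 1 was the highest dCIN for Adra1d AF071014mRNA_s_at, at 294 with the next at 146, and for Drd4, at 137 with the next at 89.1. This array was also the highest dCIN in 36.5% of all probe sets. MIX 5 was the highest MIX array for Adra1a, at 106 with the next at 61.2. MIX 6 was the highest for Drd1 S46131mRNA_s_at, at 70.2 with the next at 39.6, and the lowest for Drd4, at 61.1 with the next at 82.1. None of these arrays decided a call among the receptor probe sets.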

How the results depend on the processing

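Adra1d M60654_at was called between dCINs and MNs in every setting tried, with log2 differences of -1.63 to -0.95 (the last with an offset of 32, which shrinks differences of dim probe sets) and adjusted p-values of 0.0012 (replicate block) to 0.032 (number of cells as a covariate), and it remained the single receptor probe set called. The array numbers were not taken to pair the samples, since the labels give them no meaning and not every pair of same-numbered dCIN and MN arrays correlated above 0.1 (-0.19 to 0.53, with 2 of 7 dCIN arrays correlating best with their own number). With the replicate number as a block 1 receptor probe set was called, Adra1d M60654_at had -1.46 with an SE of 0.16, against 0.27 without the block, and 55 of all probe sets were called, against 40. The count of receptor probe sets called between dCINs and MIX was 1 with cell number as a covariate (Adra1d AF071014mRNA_s_at, 1.00, adjusted p = 0.0944) and 0 otherwise, and the cause was not tested. Over all probe sets, calls between dCINs and MNs were 40, but 76 with array weights, 83 with the array numbers 1 and 2 as a covariate and 31 to 55 with an array left out. Against MIX, 5 were called in dCINs, but 68 with cell number as a covariate and 2 with quantile normalization or a robust prior, and 10 were called in MNs, but 33 with array weights, 3 with quantile normalization and 2 without the largest MN samples, and 1 to 8 and 2 to 14 with an array left out.

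Uncalled differences between dCINs and MNs changed sign in some settings, among them larger ones: Adra1d AF071014mRNA_s_at at -0.40, Arrb2 M91590_g_at at 0.48 and Adra1b at -0.25 with all arrays. Once cell number entered as a covariate they were 0.0508 for Adra1a, 0.0468 for Adra1b, 0.228 for Adra1d AF071014mRNA_s_at, -0.0467 for Adra2c, -0.115 for Drd1 S46131mRNA_r_at, 0.0131 and 0.132 for Drd3 A17753cds_s_at and X53944_at, 0.0174 for Drd4, 0.0244 for Drd5 and -0.0292 for Arrb2 M91590_g_at. Without the MN samples of over 200 cells they were 0.0190 for Adra1a, 0.187 for Adra1d AF071014mRNA_s_at, -0.0525 for Adra2c, -0.0956 for Drd1 S46131mRNA_r_at, 0.0280 and 0.106 for Drd3, 0.0323 for Drd4 and 0.0207 for Drd5. With array weights they were 0.0454 for Adra1d AF071014mRNA_s_at, -0.0431 for Adra2c, -0.201 and -0.0449 for Drd1 S46131mRNA_r_at and S46131mRNA_s_at, and 0.00329 and 0.0888 for Drd3. Quantile normalization gave -0.00725 for Drd1 S46131mRNA_r_at. Without dCIN 1, MN 1 and MN 2 the values were -0.0234 for Adra2c, -0.0691 for Drd1 S46131mRNA_r_at, 0.0183 and 0.0199 for Drd3 and 0.0141 for Drd5. Leaving out 1 array in turn gave -0.0908 to 0.00952 for Adra2b, -0.0229 to 0.0527 for Adra2c, -0.0788 to 0.119 for Drd1 S46131mRNA_r_at, -0.0225 to 0.125 for Drd1 S46131mRNA_s_at and -0.00942 to 0.0889 for Drd2. None of these was called. Kcna1 M26161_at and Tgfb3, not called with all arrays, were called in several settings, among them without dCIN 1 (adjusted p = 0.0108 and 0.0757) and without MN 3 (0.0604 and 0.0189), and Kcna1 also without MN 2 (0.0977). Gnb2 was called without dCIN 7 (0.0953) and with array weights (0.0697), and Gnb1 U88324_g_at with array weights (0.0532).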
